A study of Mus musculus with 24 samples.

Results

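Triglyceride synthesis and glyceroneogenesis were followed through 8 genes, Gpd1, Pck1, Gpam, Agpat2, Agpat3, Lpin1, Dgat1 and Dgat2, of the 26995 gene symbols listed. They were chosen by name for their place in the pathway, and each was represented by its counted region with the highest mean read count over the 24 libraries. 3T3-L1 cells, a mouse embryonic fibroblast line that turns into fat cells when given an inducing hormone mix, were grown with 0.5 µM ML-792 or with its solvent DMSO. ML-792 blocks the E1 enzyme that activates SUMO, a small protein that is attached to other proteins and many transcription regulators. Libraries were made at day −2, in confluent pre-adipocytes before induction, and at days 1, 3 and 7 after it, with 3 biological replicates named A, B and C for each of the 8 conditions, so that each ML-792 group had a DMSO group of the same day. Induction used dexamethasone, 3-isobutyl-1-methylxanthine (IBMX) and insulin, and from day 3 the medium held insulin alone. The study's layout draws ML-792 over the whole course starting at day −2, and how many hours the day −2 cells had been exposed at harvest was not given in the sources used here. All groups, DMSO included, received 100 µM of 4-thiouridine for 45 min before harvest, so each library gave 2 readouts: total reads, and labelled reads with at least 1 T-to-C conversion, which the method takes as RNA made during the labelling. No library without 4-thiouridine was analysed here, so the share of labelled reads that come from sequencing errors was not measured. The cultures are 1 immortalized line without the vessels, nerves and immune cells of fat tissue.

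Fat cells store energy as triglyceride, which is built on glycerol 3-phosphate. Gpd1 makes glycerol 3-phosphate from the glycolytic intermediate dihydroxyacetone phosphate, and Pck1, cytosolic phosphoenolpyruvate carboxykinase, is the key enzyme of glyceroneogenesis, which makes the same precursor from pyruvate and related compounds when glucose is scarce. Gpam, a mitochondrial glycerol 3-phosphate acyltransferase, adds the first fatty acid. Agpat2 and Agpat3 add the next one and form phosphatidate. Lpin1, a lipin, removes its phosphate to give diacylglycerol, and Dgat1 and Dgat2, unrelated in sequence, add the last fatty acid. Loss of Agpat2 causes lipodystrophy in people and mice, and the fatty liver dystrophy mouse carries a defect in Lpin1.

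The reads lay at the 3′ ends of these genes on mm10, the build named by the submitters. The counted region of Gpd1 was chr15:99723288-99725008 on the plus strand, and that of Pck1 was chr2:173158647-173159254 on the plus strand. The other 6 genes lie on the minus strand, with Gpam counted over chr19:55067635-55070929, Agpat2 over chr2:26593057-26593586, Agpat3 over chr10:78269174-78273686, Lpin1 over chr12:16535669-16538412, Dgat1 over chr15:76502015-76502388 and Dgat2 over chr7:99153663-99154545. In the RefSeq annotation of GRCm38.p6, the same assembly, all of these bases were exonic, and 7 of the 8 regions were wholly 3′ untranslated. The Dgat1 region was the exception, with 153 coding bases of 374.

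RefSeq promoter sequences (250 bases before to 50 after the start, GRCm38.p6) were matched by symbol for Gpam, Agpat2, Agpat3, Lpin1 and Pck1. Gpam has 2 promoters in this table. 8 motifs were searched on both strands: TGACG (from the cAMP response element), AGGTCA (the repeat unit read by nuclear receptors such as the PPARγ-RXR pair), AGAACA (from the glucocorticoid response element), TTNNGNAA (C/EBP-like), TCACNCCA (core of a sterol response element), CCAAT (the box of that name), GGGCGG (GC box) and TATAAA. The inducing mix raises cAMP and activates the glucocorticoid receptor, and PPARγ and C/EBPα run fat cell differentiation. Sterol response elements bind the insulin-responsive factor SREBP-1c. For these reasons 5 of the windows with such letters are shown. Each is 30 bases 5′ to 3′ on the gene's strand, and capitals mark the match.
Pck1, TGACG on the opposite strand, chr2:173152971-173153000 (plus strand): gcctgccccttaCGTCAgaggcgagcctcc
Pck1, TTNNGNAA, chr2:173152823-173152852 (plus strand): aaatgTTGTGTAAggactcactatggctga
Lpin1, AGGTCA, chr12:16611023-16611052 (minus strand): ggaagtagcttgAGGTCActtcctgtagtc
Gpam promoter 1, TCACNCCA, chr19:55127385-55127414 (minus strand): ccacccccaacTCACCCCAgtgcagcatca
Gpam promoter 2, AGGTCA, chr19:55099656-55099685 (minus strand): ctaggctagctgAGGTCAcgcaagggagat
Counted from the transcription start, the Pck1 matches shown began at −90 and −245, the Lpin1 match at −74, and the Gpam matches at −165 and −196. Further matches, not shown, were AGAACA in Lpin1 (−163) and TGACG in Gpam promoter 2 (−31 and −9). TTNNGNAA was also found in Gpam promoter 1 (9) and in Agpat3 (2 and −149). CCAAT, held by 37.4% of promoters in the table, lay in Gpam promoter 1 (−74), and GC boxes lay in Gpam promoter 2 (−16) and in Pck1 (−16). TATAAA was not found in the promoters of these genes. Of the 32851 promoters in the table, 20.8% held TGACG, 16.3% AGGTCA, 19.0% AGAACA, 40.7% TTNNGNAA and 4.36% TCACNCCA on either strand. All but the last are common. Agpat2 held only GC boxes among the 8 motifs, which 35.7% of promoters hold, and Agpat3 only TTNNGNAA. These are matches of letters in a 300-base window and describe no binding.

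Summed over all counted regions, libraries held between 13554718 and 27013352 total reads and between 115709 and 820046 labelled reads, and regions that overlap count the same read more than once. All 8 genes passed the filter on low counts in total reads, and 6 of the 8 in labelled reads. Pck1 and Agpat3 did not pass in labelled reads. Values below are normalized reads, that is counts scaled by TMM factors of the total reads to the mean effective library size. Fat cell markers were at their highest and pre-adipocyte markers low at day 7 in DMSO: the summed normalized reads of 7 adipocyte markers (Adipoq, Fabp4, Plin1, Cidec, Lipe, Lep, Retn) were between 1374 and 2215 at day −2 and between 353768 and 410379 at day 7, and those of 7 pre-adipocyte and fibroblast markers (Dlk1, Pdgfra, Thy1, Col1a1, Col1a2, Col3a1, Postn) between 500628 and 614160 and between 38614 and 64538. The 5 macrophage markers summed to between 36.9 and 153 normalized reads in DMSO. Ptprc was at 0 in all 24 libraries and Adgre1 in every DMSO library, and the other 3 were tested: Cd68, a lysosomal protein, was called higher at day 3 than at day −2 (2.33 ± 0.41, adjusted p = 2.7e-04), Csf1r was called lower at day 7 (means of 38.9 at day −2 and 0.749 at day 7, adjusted p = 0.0033), and Lyz2 was not called at either day. The 3 endothelial markers (Pecam1, Cdh5, Kdr) summed to between 2.64 and 16.7 normalized reads in DMSO. Cdh5 was at 0 in every DMSO library, and the 1 endothelial marker tested was not called at day 3 or day 7. The myoblast Myod1 and Myog were at 0 in every DMSO library. Des, an intermediate filament of muscle and the third myoblast marker, rose by 3.83 ± 0.34 to day 7 (adjusted p = 2.4e-07), where the 3 markers summed to between 265 and 501. In these bulk samples, fewer cells of a type and less RNA per cell cannot be told apart.

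All 8 genes rose during differentiation in DMSO. Gpd1 and Dgat2 each rose about 300-fold by day 7, Agpat2, Lpin1 and Dgat1 between 19.8-fold and 46.5-fold, Gpam 5.32-fold and Agpat3 2.91-fold. Pck1 went from a single read in the 3 day −2 libraries to 2240 reads at day 7. At least 1 of days 1, 3 and 7 differed from day −2 for 8 of 8 genes (edgeR quasi-likelihood test, adjusted p under 0.01), against 49.9% of all genes tested. At day 7 all 8 were higher than at day −2, against 19.5% of genes, and at day 3 it was 7 of 8, against 17.9%. Every day 7 library lay above every day −2 library for each of the 8 genes, and the share of all genes without such overlap was not measured. The counts of called genes stand beside the background as a description, since the genes were chosen knowing that they belong to fat cells. Pck1, with 1 read at day −2 and 3 at day 1 in DMSO, passed the filter on low counts through days 3 and 7. Its rise was thus largely set by the filter.

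**Figure D1:**
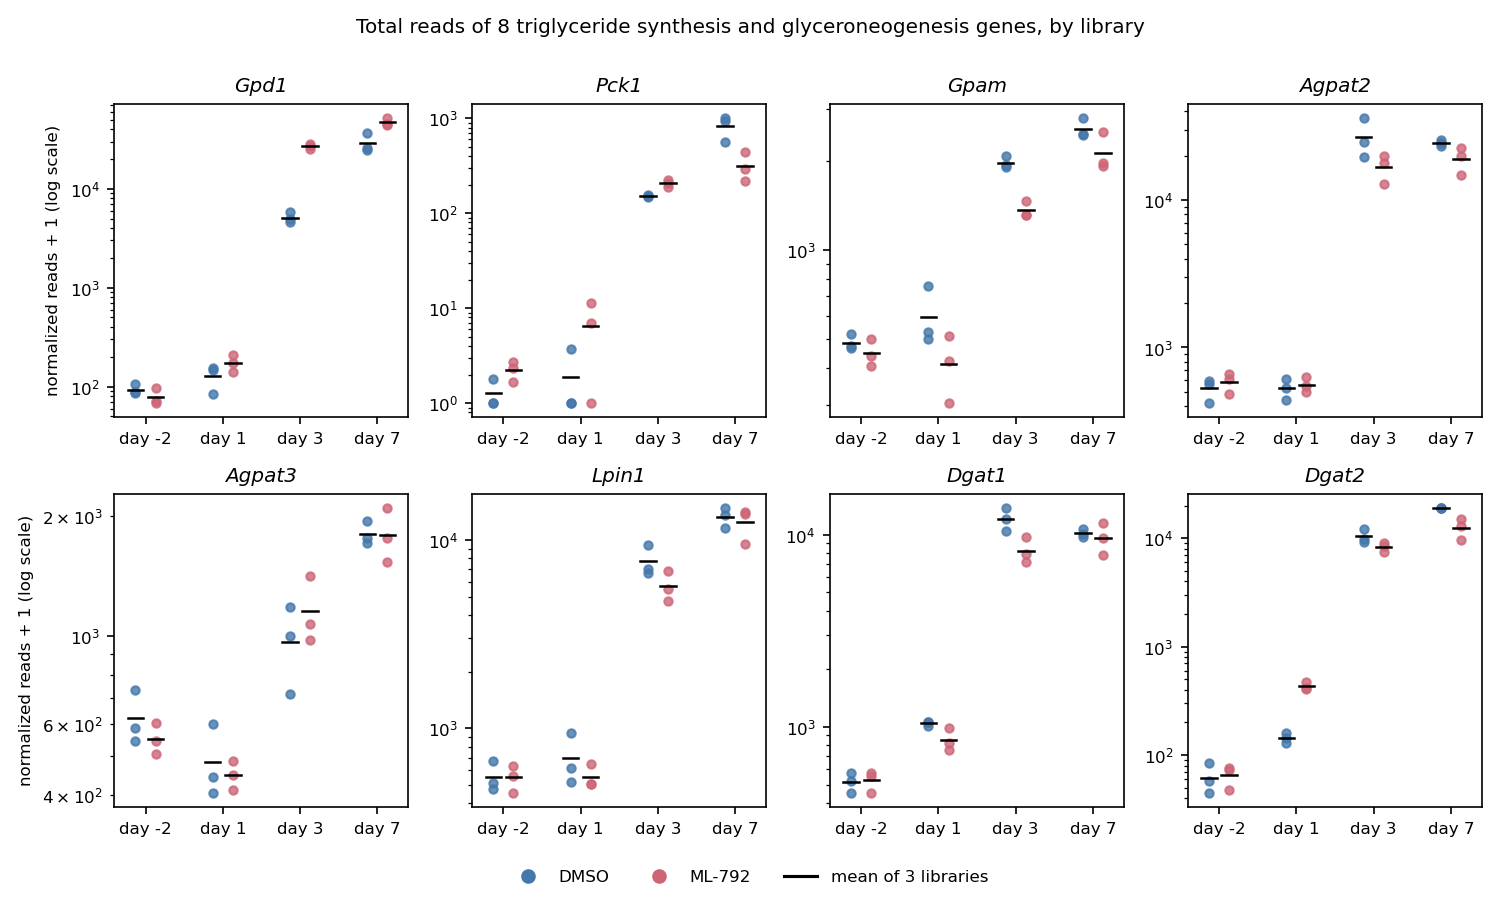
Total reads of each gene in the 24 libraries, as normalized reads plus 1 on a log scale that differs between panels, by day and treatment. Points are libraries and bars are the means of 3. In DMSO every day 7 library lies above every day −2 library in all 8 panels, and Gpd1 at day 3 with ML-792 lies above Gpd1 at day 3 in DMSO. The share of all genes without such overlap was not measured.

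Among the genes that supply glycerol 3-phosphate, Gpd1 was at 86.5, 105 and 86.2 normalized reads in the 3 DMSO libraries of day −2, at 146, 153 and 83.3 at day 1, at 4648, 4895 and 5791 at day 3 and at 25509, 36163 and 24426 at day 7. The day −2 and day 1 libraries overlapped, and day 3 and day 7 were separate from these and from each other. The log2 change from day −2 was 5.78 ± 0.28 (SE) at day 3 (edgeR adjusted p = 4.8e-10) and 8.28 ± 0.31 at day 7 (adjusted p = 3.5e-11). Between day 3 and day 7 Gpd1 rose by a further 2.50 ± 0.23 (adjusted p = 3.8e-06).

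Pck1 had 1, 0 and 0 reads in the DMSO libraries of day −2 and 0, 3 and 0 at day 1, so it was barely detected in either. At day 3 it was at 155, 152 and 146 normalized reads, and at day 7 at 928, 556 and 1001. The ratio of day 7 to day −2 rested on 2240 reads against 1 and was 2899 (95% exact counting interval 520 to 114543). Its size is poorly known, since even this wide interval covers counting error only and leaves out the spread between libraries. From day 3 to day 7, where both groups had reads, Pck1 rose by 2.46 ± 0.33 on the log2 scale (adjusted p = 1.05e-04).

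The first 2 acylation steps differed in how far they moved. Gpam was at 472, 465 and 520 normalized reads at day −2, at 1941, 1904 and 2079 at day 3 and at 2792, 2468 and 2458 at day 7. Against day −2, Gpam rose by 2.02 ± 0.18 (log2) to day 3 (adjusted p = 2.8e-07) and by 2.41 ± 0.18 to day 7 (adjusted p = 3.7e-08), and the step from day 3 to day 7 did not pass the test (0.39 ± 0.17, adjusted p = 0.15). Agpat2 was at 568, 418 and 594 normalized reads at day −2 and at 527, 441 and 609 at day 1, then at 24973, 19753 and 35974 at day 3 and 23285, 25542 and 24346 at day 7. The whole rise of Agpat2 lay between day 1 and day 3, with a log2 change of 5.68 ± 0.27 from day −2 to day 3 (adjusted p = 3.8e-10) and a difference of −0.13 ± 0.22 between day 7 and day 3 (adjusted p = 0.74). Agpat3, a more broadly expressed relative, was at 545, 731 and 587 normalized reads at day −2, 716, 1183 and 997 at day 3 and 1756, 1940 and 1712 at day 7. The day −2 and day 3 libraries of Agpat3 overlapped (log2 change 0.63 ± 0.21, adjusted p = 0.026), and day 7 lay above both, at 1.54 ± 0.22 over day −2 (adjusted p = 2.8e-05) and 0.91 ± 0.21 over day 3 (adjusted p = 0.0079). In edgeR with the replicate letter as a block, the day 3 change of Agpat3 was called (0.62 ± 0.14, adjusted p = 0.0013).

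Lpin1, the phosphatase step, was at 510, 673 and 476 normalized reads at day −2, at 617, 948 and 519 at day 1, at 6645, 9433 and 7040 at day 3 and at 13577, 14722 and 11609 at day 7. Days 3 and 7 lay above the earlier days and did not overlap each other. Lpin1 rose by 3.79 ± 0.26 (log2) from day −2 to day 3 (adjusted p = 1.6e-08) and by 4.59 ± 0.27 to day 7 (adjusted p = 2.4e-09). The step from day 3 to day 7 was 0.80 ± 0.23 and did not reach the threshold of 0.01 (adjusted p = 0.027). With DESeq2 it did, at 0.82 ± 0.25 (adjusted p = 0.0068), and also in edgeR with the replicate letter as a block, at 0.81 ± 0.13 (adjusted p = 2.2e-04).

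The 2 genes of the last step, Dgat1 and Dgat2, were those of the 8 that were already higher at day 1, against 7.67% of all genes. Dgat1 was at 518, 453 and 575 normalized reads at day −2, at 1053, 1007 and 1057 at day 1, at 12069, 10485 and 13710 at day 3 and at 10700, 10110 and 9709 at day 7. Against day −2, Dgat1 rose by 1.02 ± 0.16 (log2) at day 1 (adjusted p = 2.5e-04), by 4.55 ± 0.18 at day 3 (adjusted p = 1.22e-10) and by 4.31 ± 0.18 at day 7 (adjusted p = 1.02e-10). Dgat1 thus stood at a like level on days 3 and 7, which differed by −0.24 ± 0.16 with overlapping libraries (adjusted p = 0.35). Dgat2 was at 56.1, 83.7 and 43.5 normalized reads at day −2, at 160, 128 and 142 at day 1, at 9902, 9240 and 12207 at day 3 and at 18820, 18917 and 18877 at day 7. Each day of Dgat2 lay wholly above the one before it. On the log2 scale Dgat2 rose from day −2 by 1.24 ± 0.23 to day 1 (adjusted p = 9.7e-04), by 7.41 ± 0.28 to day 3 (adjusted p = 7.8e-11) and by 8.27 ± 0.28 to day 7 (adjusted p = 2.4e-11), and by 0.86 ± 0.21 from day 3 to day 7 (adjusted p = 0.0093). Without replicate A the day 1 changes were 0.97 ± 0.27 for Dgat1 (adjusted p = 0.052) and 1.04 ± 0.35 for Dgat2 (adjusted p = 0.096), and without replicate C that of Dgat2 was 1.04 ± 0.27 (adjusted p = 0.0319).

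From day 3 to day 7 in DMSO, 4 of the 8 genes rose further, Gpd1, Pck1, Agpat3 and Dgat2, against 6.11% of all genes tested. Leaving out replicate A ended the calls for Pck1 (2.39 ± 0.48, adjusted p = 0.020), Agpat3 (0.74 ± 0.28, adjusted p = 0.18) and Dgat2 (0.82 ± 0.32, adjusted p = 0.20). Leaving out replicate C ended those for Agpat3 (0.97 ± 0.31, adjusted p = 0.0899) and Dgat2 (0.99 ± 0.25, adjusted p = 0.039).

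Labelled reads, used as a measure of RNA made in the last 45 min, rose for 5 of the 6 genes tested. Labelled reads made up 3.17% ± 0.485 (SD, n = 3) of all reads at day −2 and 1.03% ± 0.0869 at day 7 in DMSO. Since labelled counts were scaled by the total reads, the median gene therefore moved by −1.44 on the log2 scale between these days (−0.33 when labelled counts were scaled by labelled reads), and each change below can be read against that shift. In labelled reads 42.3% of all genes differed from day −2 on at least 1 day, but only 2.04% were higher at day 3 and 2% at day 7. Of the 6 genes tested here, 5 were higher at day 3 and 5 at day 7. Gpd1, Dgat2 and Agpat2 had 1, 10 and 23 labelled reads summed over the 3 DMSO libraries of day −2. They passed the filter on low counts through their reads at days 3 and 7. For such genes a rise was largely set by the filter, so these counts are a description and not a test against the background.

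**Figure D2:**
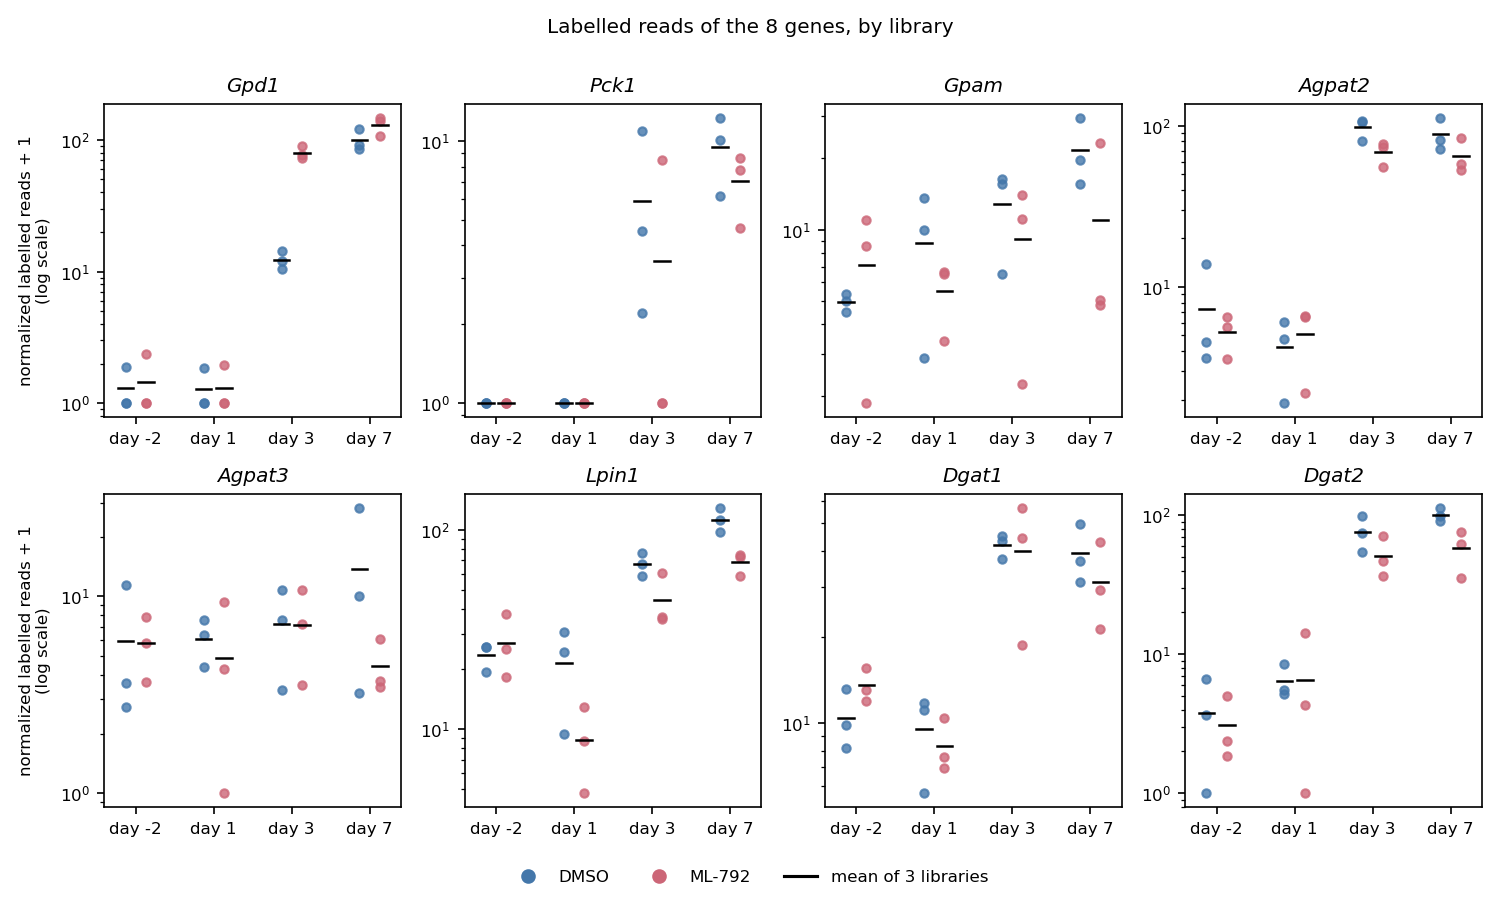
Labelled reads of each gene in the 24 libraries, as normalized labelled reads plus 1 on a log scale that differs between panels, by day and treatment. Points are libraries and bars are the means of 3. Gpd1 and Pck1 lie at or near 0 at days −2 and 1, and at day 3 the 3 Gpd1 libraries with ML-792 (72.3 to 88.1) lie above those in DMSO (9.41 to 13.4).

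Summed over the 3 DMSO libraries, labelled Gpd1 had 1 read on each of days −2 and 1, then 29 reads (day 3) and 269 reads (day 7). In normalized labelled reads these were 0, 0.881 and 0 at day −2, 11.0, 9.41 and 13.4 at day 3 and 89.9, 119.7 and 84.2 at day 7. The ratio of day 7 to day −2 was 348 (95% exact counting interval 61.9 to 13800), and from day 3 to day 7 labelled Gpd1 rose by 3.11 ± 0.54 on the log2 scale (adjusted p = 3.3e-04). Without replicate A or C this late rise was 3.15 ± 0.73 (adjusted p = 0.0295) or 3.35 ± 0.71 (adjusted p = 0.0145). Labelled Pck1 was at 0 in all 3 libraries of day −2 and of day 1, and had 13 reads at day 3 and 23 at day 7. That is at least 9.92-fold higher at day 7 than at day −2, taking 3 reads over the group as the floor.

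Agpat2 rose from 12.8, 3.52 and 2.61 normalized labelled reads at day −2 to 106, 80.0 and 105 at day 3, a log2 change of 3.89 ± 0.52 (adjusted p = 3.5e-08), and was at 80.9, 70.8 and 110 at day 7. Dgat2 rose from 5.61, 2.64 and 0 to 73.9, 52.9 and 98.5 at day 3 and 111, 89.5 and 97.8 at day 7, where the log2 change was 5.10 ± 0.58 (adjusted p = 4.7e-10). For both genes the day 3 and day 7 libraries overlapped in labelled reads. Dgat1 rose by 2.02 ± 0.54 at day 7 (adjusted p = 0.0021) and Lpin1 by 2.30 ± 0.44 (adjusted p = 3.4e-05). Without replicate A or C the Dgat1 change at day 7 was 1.87 ± 0.72 (adjusted p = 0.0492) or 2.03 ± 0.72 (adjusted p = 0.0282). The labelled rise of Lpin1 at day 3 was 1.54 ± 0.44 (adjusted p = 0.0034), and without replicate A or C it was 1.68 ± 0.60 (adjusted p = 0.0303) or 1.30 ± 0.55 (adjusted p = 0.0622). That of Dgat1 at day 3 was 2.11 ± 0.54 (adjusted p = 0.0013), and 1.86 ± 0.72 (adjusted p = 0.0443) or 2.40 ± 0.72 (adjusted p = 0.0105) without them. Gpam, with 14 labelled reads at day −2 and 56 at day 7, came just short of the threshold at 2.35 ± 0.76 (adjusted p = 0.011), which DESeq2 passed (2.39 ± 0.75, adjusted p = 0.0052).

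The labelled share of a gene is its labelled reads as a percent of its total reads. For Lpin1 in DMSO it was 4.12% ± 0.649 (SD, n = 3) before induction, 2.85% ± 1.11 a day after it, 0.877% ± 0.187 at day 3 and 0.839% ± 0.0932 at day 7. The mean of Lpin1 stood above the library mean of 3.17% before induction and below that of 1.03% at day 7. For Gpd1 it was 0.220% ± 0.0244 in day 3 libraries and 0.343% ± 0.0109 in those of day 7, so that its day 7 libraries (0.331% to 0.352%) lay above its day 3 libraries (0.192% to 0.237%). These shares depend on the T content and conversion rate of each region and on sequencing errors as well as on RNA made, and no test was run on them.

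With ML-792 the pathway was induced as well. All 8 genes were higher at day 7 than at day −2 within the ML-792 series, against 21% of all genes. Pck1 had 5 reads over the 3 ML-792 libraries of day −2, so here too its rise was largely set by the filter on low counts. The course over the 4 days differed between treatments (interaction of day and treatment, adjusted p under 0.1) for 3 of 8 genes, Gpd1 (adjusted p = 1.1e-05), Dgat2 (adjusted p = 5.8e-05) and Pck1 (adjusted p = 0.015), against 11.9% of all genes. For Lpin1 and Agpat3 the interaction had adjusted p = 0.85 and 0.80.

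Before induction no gene of the 8 differed between treatments. At day −2 edgeR called 0% of all genes (184 at an unadjusted p under 0.05 in total reads) and none of the 8 (0 at an unadjusted p under 0.05, and 0 with DESeq2), in total and in labelled reads. Gpd1, for example, was at 94.9, 71.4 and 67.0 normalized reads with ML-792 and at 86.5, 105 and 86.2 in DMSO.

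**Figure D3:**
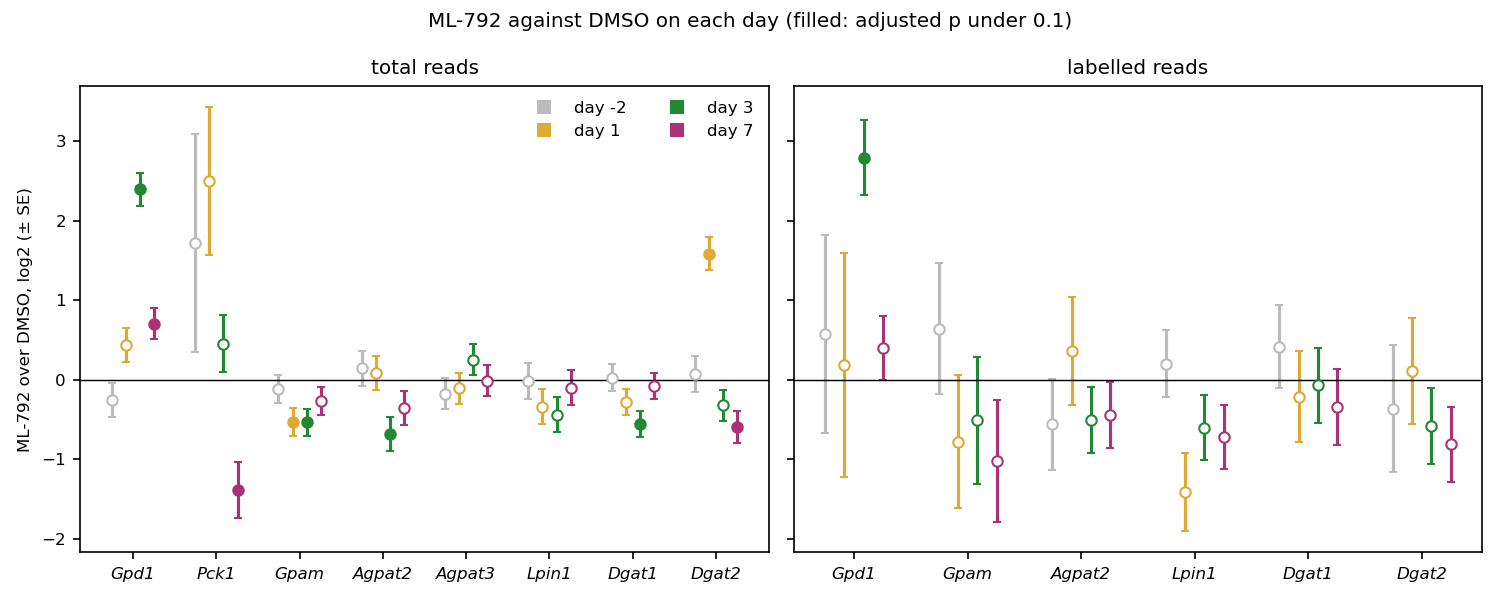
Log2 difference between ML-792 and DMSO on each day with its SE, from edgeR, for the 8 genes in total reads (left) and the 6 tested in labelled reads (right). Filled circles passed an adjusted p of 0.1. Gpd1 at day 3 stands highest among the filled circles in both panels (2.40 and 2.79), and Pck1 at day 7 lowest (−1.38).

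At day 1, 2 of 8 genes differed between treatments, against 7.87% of all genes. Dgat2 was at 474, 415 and 402 normalized reads with ML-792 and at 160, 128 and 142 in DMSO, 3.00-fold higher with no overlap (log2 1.59 ± 0.21, adjusted p = 1.9e-05). Labelled Dgat2 had 17 raw reads with ML-792 and 18 in DMSO on that day, a log2 difference of 0.11 ± 0.67 (edgeR adjusted p = 0.98). Gpam was at 421, 303 and 510 against 501, 753 and 528, groups that overlap, and was called lower by 0.53 ± 0.18 at the edge of the threshold (adjusted p = 0.099). Without replicate B the Gpam difference was −0.14 ± 0.15 (adjusted p = 0.76), without A −0.65 ± 0.25 (adjusted p = 0.36) and without C −0.81 ± 0.23 (adjusted p = 0.12), and with only the 6 libraries of day 1 it had adjusted p = 0.38. Pck1 had 0, 5 and 11 reads with ML-792 and 0, 3 and 0 in DMSO, a ratio of 6.38 (95% exact counting interval 1.83 to 34.2) that did not pass the test across libraries (adjusted p = 0.16), although DESeq2 (adjusted p = 0.071), no filter on low counts (0.025) and leaving out replicate B (0.072) called it. The 7 adipocyte markers summed to between 5786 and 7726 with ML-792 and to between 3330 and 4125 in DMSO on that day, and their part in the Dgat2 difference was not tested. In labelled reads edgeR called none of the 6 genes tested at day 1 (1 at an unadjusted p under 0.05), against 0.979% of all genes, and DESeq2 called Lpin1. Labelled Lpin1 was at 7.69, 11.9 and 3.75 normalized reads with ML-792 and at 23.4, 29.7 and 8.42 in DMSO, groups that overlap, with 21 against 68 raw reads. The log2 difference was −1.41 ± 0.49 (edgeR adjusted p = 0.21; DESeq2 −1.42 ± 0.49, adjusted p = 0.098), and that of the median gene was −0.30. Within the ML-792 series labelled Lpin1 fell from between 17.3 and 36.5 at day −2 to these day 1 values (−1.76 ± 0.48, adjusted p = 0.0036), in a comparison where 21.9% of all genes were lower and the median gene moved by −1.31.

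At day 3, 4 of 8 genes differed, against 15.5% of all genes, 1 higher (8.04% of all genes) and 3 lower (7.5%). Gpd1 was at 27344, 25225 and 28125 normalized reads with ML-792 and at 4648, 4895 and 5791 in DMSO. The groups were far apart, 5.26-fold (log2 2.40 ± 0.21, adjusted p = 1.9e-08). At day 3 with ML-792 Gpd1 already stood within the range of the DMSO libraries of day 7 (24426 to 36163). In labelled reads Gpd1 was at 88.1, 72.3 and 75.7 with ML-792 and at 11.0, 9.41 and 13.4 in DMSO, 199 against 29 raw reads (log2 2.79 ± 0.47, adjusted p = 1.1e-04). It was the one call among the 6 genes tested in labelled reads at day 3, against 1.15% of all genes. The labelled share of Gpd1 was 0.293% ± 0.0271 with ML-792 and 0.220% ± 0.0244 in DMSO (SD, n = 3), with ranges of 0.269% to 0.322% and 0.192% to 0.237%.

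The 3 genes called lower at day 3 were spread over the acylation steps and moved less than Gpd1. Gpam was at 1463, 1314 and 1312 normalized reads with ML-792 and at 1941, 1904 and 2079 in DMSO (log2 −0.53 ± 0.17, adjusted p = 0.053). Agpat2 was at 19815, 12780 and 17744 against 24973, 19753 and 35974, with its highest ML-792 library just above the lowest of DMSO (−0.68 ± 0.21, adjusted p = 0.044). Dgat1 was at 9722, 7157 and 7878 against 12069, 10485 and 13710 (−0.55 ± 0.16, adjusted p = 0.033). Leaving out replicate A or C, which leaves 2 libraries a group, ended each of these calls, with log2 differences of −0.60 ± 0.24 and −0.47 ± 0.23 for Gpam (adjusted p = 0.26 and 0.37), −0.87 ± 0.31 and −0.45 ± 0.27 for Agpat2 (adjusted p = 0.19 and 0.51) and −0.69 ± 0.23 and −0.42 ± 0.22 for Dgat1 (adjusted p = 0.15 and 0.45). Lpin1 (−0.44 ± 0.22, adjusted p = 0.27, and 0.089 without replicate B) and Dgat2 (−0.32 ± 0.20, adjusted p = 0.41) were not called, nor were Agpat3 (0.26 ± 0.19, adjusted p = 0.53) and Pck1 (0.45 ± 0.36, adjusted p = 0.56). In edgeR with the replicate letter as a block, Lpin1 was called lower (−0.44 ± 0.12, adjusted p = 0.0073). With only the 6 libraries of day 3, Agpat2 and Dgat1 had adjusted p = 0.17 and 0.15, and with no filter on low counts Gpam had 0.15. In labelled reads none of the lower 3 was called, and the differences were −0.51 ± 0.80 for Gpam, −0.51 ± 0.42 for Agpat2 and −0.07 ± 0.47 for Dgat1.

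At day 7, 3 of 8 genes differed, against 11.7% of all genes, with Gpd1 higher (6.32% of all genes were) and Dgat2 and Pck1 lower (5.43%). Gpd1 was at 51567, 43621 and 45410 normalized reads with ML-792 and at 25509, 36163 and 24426 in DMSO (log2 0.71 ± 0.20, 1.63-fold, adjusted p = 0.029). Pck1 was at 441, 218 and 293 against 928, 556 and 1001, 2.61-fold lower with no overlap (−1.38 ± 0.36, adjusted p = 0.016). Labelled Pck1, outside the filter on low counts, had 14 raw reads with ML-792 and 23 in DMSO. Without the filter its labelled difference was −0.49 ± 1.19 and was not called. Dgat2 was at 14956, 9687 and 12870 against 18820, 18917 and 18877 (−0.59 ± 0.20, adjusted p = 0.074). The 2 genes that feed glycerol 3-phosphate into the pathway thus differed from DMSO in opposite directions at day 7 in total reads. Without replicate A the differences were 0.56 ± 0.27 for Gpd1 (adjusted p = 0.44) and −0.74 ± 0.29 for Dgat2 (adjusted p = 0.29). Without replicate C they were 0.61 ± 0.22 for Gpd1 (adjusted p = 0.24), −0.63 ± 0.26 for Dgat2 (adjusted p = 0.31) and −1.19 ± 0.47 for Pck1 (adjusted p = 0.30). Without replicate B they stayed under the threshold.

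The other 5 genes were not called at day 7. Agpat2 was at 22504, 14841 and 19841 with ML-792 against 23285, 25542 and 24346 in DMSO (−0.36 ± 0.21, adjusted p = 0.42), every ML-792 library below every DMSO library. In edgeR with the replicate letter as a block, Agpat2 was called lower (−0.39 ± 0.14, adjusted p = 0.058). Gpam differed by −0.27 ± 0.17, with an interval of 2 SE from −0.61 to 0.08, Lpin1 by −0.10 ± 0.22 (−0.54 to 0.34), Dgat1 by −0.08 ± 0.16 (−0.41 to 0.25) and Agpat3 by −0.01 ± 0.19 (−0.39 to 0.37). In labelled reads at day 7 none of the 6 genes tested was called (0 at an unadjusted p under 0.05, and 0 with DESeq2), against 0.948% of all genes. Labelled Dgat2 was at 74.9, 34.3 and 61.1 with ML-792 and at 111, 89.5 and 97.8 in DMSO (−0.81 ± 0.47, adjusted p = 0.55), and labelled Lpin1 at 57.7, 73.6 and 72.0 against 127, 110 and 96.7 (−0.72 ± 0.40, adjusted p = 0.51). The ML-792 libraries of both lay below all DMSO libraries, and the median gene differed by −0.36 in labelled reads on that day. For these genes and for Agpat2 in total reads, the share of all genes without such overlap was not measured.

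The effect of ML-792 itself changed between day 3 and day 7 for 2 of 8 genes, against 4.39% of all genes. For Gpd1 the difference between treatments was smaller at day 7 than at day 3 by 1.69 ± 0.28 on the log2 scale (−1.69, adjusted p = 0.0010), as DMSO cultures rose 5.64-fold between these days and ML-792 cultures 1.74-fold. For Pck1 it was −1.84 ± 0.51 (adjusted p = 0.055), from 209, 188 and 225 against 155, 152 and 146 normalized reads at day 3 to the deficit at day 7. Without replicate A the 2 values were −1.76 ± 0.39 (adjusted p = 0.11) and −2.08 ± 0.58 (adjusted p = 0.26), and without replicate C that of Pck1 was −1.56 ± 0.68 (adjusted p = 0.56). In labelled reads the value for Gpd1 was −2.40 ± 0.61 and did not pass (adjusted p = 0.20), on a background of 0.0155% of genes called. DESeq2 called it, at −2.43 ± 0.54 (adjusted p = 0.011), as did edgeR with the replicate letter as a block, at −2.40 ± 0.57 (adjusted p = 0.037). The labelled interaction called 0 of 6 genes with edgeR (1 at an unadjusted p under 0.05, 1 with DESeq2) and 0.28% of all genes.

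Marker genes of both cell states moved between treatments beside these results. Of the 7 adipocyte markers, 4 differed at day 3, Lep higher (5.08 ± 0.42) and Adipoq, Lipe and Retn lower (−0.89 ± 0.23, −0.59 ± 0.20 and −2.82 ± 0.31), and 3 at day 7, Adipoq, Fabp4 and Lep, all higher. Their sum was between 250515 and 285386 at day 3 with ML-792 and between 180863 and 269035 in DMSO, and at day 7 between 543873 and 594799 and between 353768 and 410379. Of the 7 pre-adipocyte and fibroblast markers, 5 were higher with ML-792 at day 3, with sums of 73786 to 90673 against 45708 to 59576. At day 7, 5 were higher and Dlk1 was lower, with sums of 77024 to 106211 against 38614 to 64538. Of 4 markers of cycling cells (Mki67, Top2a, Ccnb1, Cdk1), 2 were lower with ML-792 at day 3, with sums of 1810 to 3007 against 3473 to 5069. At day 7, 0 of these 4 were called. Des was lower with ML-792 at days 3 and 7 (−1.11 ± 0.40 and −1.52 ± 0.35), and Csf1r was called higher at day 7, at a mean of 12.1 against 0.749 normalized reads (adjusted p = 0.093). The shares of all genes called with ML-792 were 15.5% at day 3 and 11.7% at day 7. The part of cell composition in the differences of Gpd1, Pck1 and Dgat2 was not tested.

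Other genes of glycerol 3-phosphate and pyruvate supply were read beside Gpd1 and Pck1 from a list of 10 (Gpd1l, Gpd2, Gk, Pck2, Pcx, Pdk4, Aqp7, Mdh1, Mdh2, Me1). In DMSO 7 of the 10 were higher at day 7 than at day −2 and none lower, against 19.5% of all genes higher, with a median log2 change of 1.58 against 0.01 over all genes. Pcx, pyruvate carboxylase, rose by 5.11 ± 0.25 and Mdh1, cytosolic malate dehydrogenase, by 3.30 ± 0.31, and both also rose in labelled reads (3.52 ± 0.64 and 2.39 ± 0.47). At day 3, 6 of the 10 differed with ML-792, against 15.5% of all genes, 4 higher (8.04% of all genes) and 2 lower (7.5%). Aqp7, the glycerol channel of fat cells, was at 95.6 to 166 normalized reads with ML-792 and 5.51 to 8.23 in DMSO (4.16 ± 0.44, adjusted p = 3.5e-07). Gk, glycerol kinase, which makes glycerol 3-phosphate directly from glycerol, was at 1320 to 1961 against 214 to 349 (2.55 ± 0.21, adjusted p = 8.2e-09). Me1 and Pdk4 were also higher (1.15 ± 0.19 and 1.51 ± 0.46). The 2 lower genes were Pck2, the mitochondrial counterpart of Pck1, at 514 to 713 against 2466 to 2982 (−2.24 ± 0.16, adjusted p = 1.1e-09), and Pcx (−0.50 ± 0.17, adjusted p = 0.075). At day 7, 3 of the 10 differed, against 11.7% of all genes, with Aqp7 (1.90 ± 0.35) and Gk (0.63 ± 0.20) higher and Pck2 lower (−1.51 ± 0.16). In labelled reads none of the 9 tested was called at either day (edgeR, 0 at an unadjusted p under 0.05). The shares of all genes called in labelled reads were 1.15% at day 3 and 0.948% at day 7. So Gpd1, Gk and Aqp7 were higher with ML-792 at days 3 and 7 in total reads, Pck2 was lower at both, and Pck1 was lower at day 7.

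**Figure D4:**
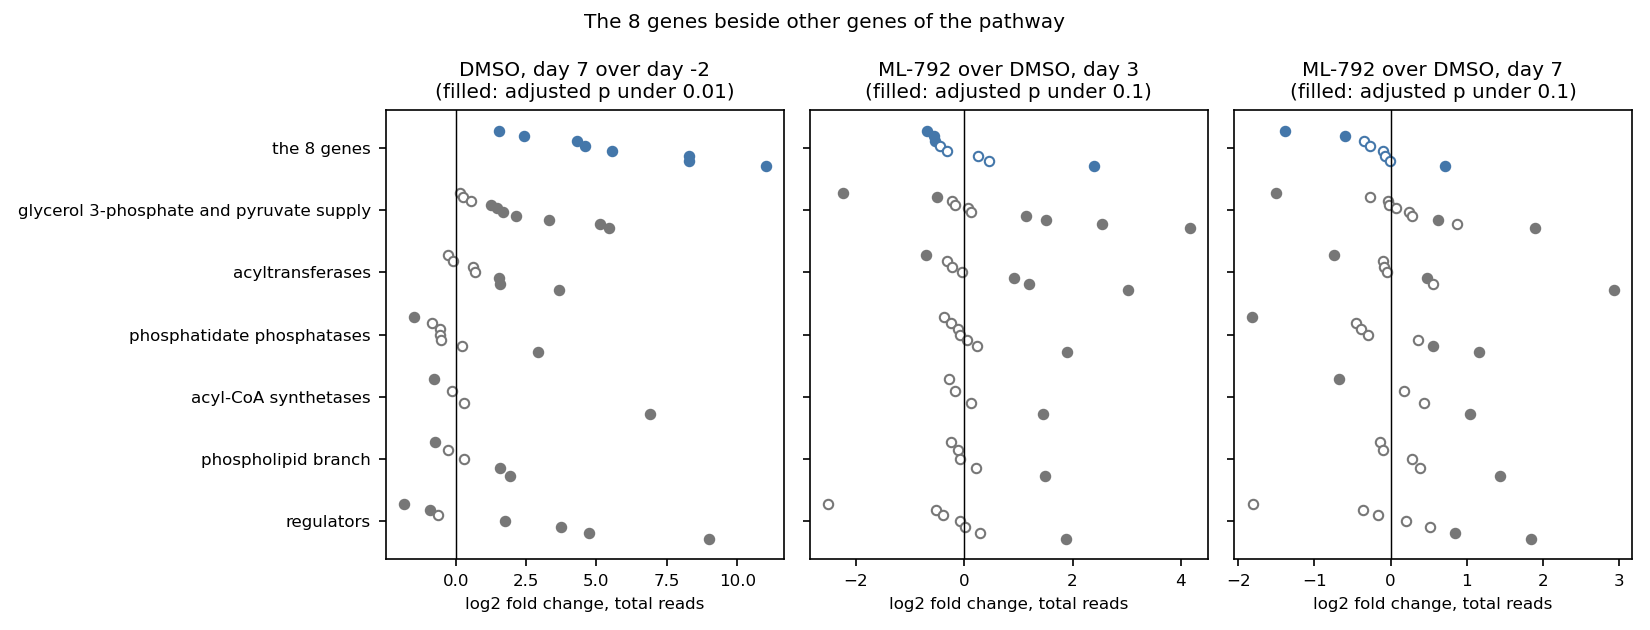
Log2 fold changes in total reads of the 8 genes and of 6 lists of related genes, with the DMSO change from day −2 to day 7 on the left and the ML-792 difference from DMSO of day 3 (middle) and day 7 (right); each point is a gene and filled points passed the adjusted p given above the panel. All 8 genes are filled in the left panel, and the supply list spans from −2.24 (Pck2) to 4.16 (Aqp7) at day 3.

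Of the 10 other acyltransferases on the list (Gpat2, Gpat3, Gpat4, Agpat1, Agpat4, Agpat5, Lclat1, Lpgat1, Mogat1, Mogat2) 7 were tested, and 3 were higher at day 7, Gpat4 (1.57 ± 0.24), Agpat5 (1.53 ± 0.19) and Mogat1 (3.66 ± 0.99), with none lower and a median of 0.69, against 19.5% higher and 19% lower over all genes. With ML-792, 4 of the 7 differed at day 3 and 3 at day 7, against 15.5% and 11.7% of all genes. At day 3 Mogat1, a monoacylglycerol acyltransferase, was at 26.1 to 53.3 normalized reads against 1.22 to 7.72 (3.02 ± 0.68, adjusted p = 0.0037), and Lpgat1 (1.19 ± 0.16) and Gpat4 (0.92 ± 0.23) were also higher while Agpat4 was lower (−0.70 ± 0.16). At day 7 Mogat1 (2.93 ± 0.59) and Lpgat1 (0.48 ± 0.16) stayed called higher and Agpat4 lower (−0.75 ± 0.16). None of the 5 genes of this list tested in labelled reads was called at day 3 (edgeR, 1 at an unadjusted p under 0.05) or day 7 (0). Of all genes, 1.15% and 0.948% were called in labelled reads on these days. Gpam and Agpat2, lower at day 3, thus differed in sign from Gpat4, Lpgat1 and Mogat1.

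Among 7 other phosphatases and their regulators (Lpin2, Lpin3, Plpp1, Plpp2, Plpp3, Ctdnep1, Cnep1r1), 1 was higher and 1 lower at day 7 in DMSO, against 19.5% and 19% of all genes, and the median was −0.55. Lpin3 rose by 2.92 ± 0.67 from low counts, while Lpin2 was at −0.57 ± 0.22 (adjusted p = 0.050). Plpp1, a phospholipid phosphatase of the cell membrane, fell by 1.46 ± 0.15 in total reads and by 2.48 ± 0.57 in labelled reads. With ML-792, 1 of the 7 differed at day 3, a share near the 15.5% of all genes. It was Plpp1, higher by 1.89 ± 0.14 in total (adjusted p = 2.2e-09) and 1.89 ± 0.49 in labelled reads (adjusted p = 0.046). At day 7, against 11.7% of all genes, 3 of the 7 differed, of which Plpp1 (1.16 ± 0.14) and Cnep1r1 (0.56 ± 0.20) were higher and Lpin3 was lower (−1.82 ± 0.64).

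Of 5 acyl-CoA synthetases, which activate the fatty acids used by every acylation step, 4 were tested, and 2 of these differed at day 7 in DMSO, against 38.5% of all genes. Acsl1, the main isoform of fat cells, rose by 6.89 ± 0.26 at day 7 in DMSO and by 4.68 ± 0.37 in labelled reads, and Acsl5 was lower (−0.78 ± 0.18). Acsl1 did not pass the test between treatments at day 3 (−0.17 ± 0.16) or day 7 (0.43 ± 0.16, adjusted p = 0.12). Acsl5 was higher with ML-792 at both days (1.46 ± 0.19 and 1.04 ± 0.18), and Acsl4 was lower at day 7 (−0.67 ± 0.21), so 1 of 4 was called at day 3 and 2 of 4 at day 7, against 15.5% and 11.7% of all genes. In the branch that leads from phosphatidate and diacylglycerol to phospholipids, 5 of 7 genes were tested, 2 were higher at day 7 in DMSO (Chpt1, 1.94 ± 0.21, and Pcyt2, 1.56 ± 0.24) and 1 lower (Pcyt1a, −0.73 ± 0.16), against 19.5% and 19% of all genes. Chpt1, which makes phosphatidylcholine from diacylglycerol and so competes with Dgat1 and Dgat2 for it, was the one gene of the 5 called with ML-792 at days 3 and 7 (15.5% and 11.7% of all genes), higher by 1.49 ± 0.18 at day 3 and 1.43 ± 0.18 at day 7.

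Of 7 regulators, 4 were higher at day 7 in DMSO, Pparg (3.76 ± 0.48), Cebpa (4.72 ± 0.27), Srebf1 (1.76 ± 0.20) and Mlxipl, which had no reads at day −2, and Nr3c1 (−0.92 ± 0.21), the glucocorticoid receptor, and Ppargc1a (−1.84 ± 0.27) were lower, against 19.5% of all genes higher and 19% lower. Mlxipl passed the filter on low counts through its reads in other groups, so its rise was largely set by the filter. Pparg and Cebpa did not pass the test between treatments at day 3 (−0.52 ± 0.46 and −0.39 ± 0.31) or at day 7 (0.52 ± 0.46 and −0.16 ± 0.30). Ppargc1a, a coactivator known to raise Pck1 and Gk in other settings, was higher with ML-792 at day 3 (1.88 ± 0.25, adjusted p = 9.1e-06) and day 7 (1.84 ± 0.25), and Srebf1 at day 7 (0.84 ± 0.19), so 1 of 7 was called at day 3 and 2 of 7 at day 7, against 15.5% and 11.7% of all genes.

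Over the means of the 8 conditions the 8 genes followed each other closely, since all rise from day 1 to day 3. Pearson's r of log2 normalized reads was highest between Gpam and Lpin1 (0.99) and lowest between Agpat3 and Dgat1 (0.87). Across all genes tested, the 3 most like Gpd1 were Slc25a44, Ecsit and Ltc4s (r = 0.996, 0.996 and 0.995), the 3 most like Pck1 were Mif4gd, Immp2l and Ndufs7 (0.998, 0.997 and 0.996), and the 3 most like Dgat2 were Slc25a10, Cyc1 and Fam195a (0.996, 0.995 and 0.995). The nearest genes were Tor2a, Mtfr1l and Rnf8 for Gpam, Hipk2, Pex16 and Tufm for Agpat2, Apol6, Trappc6b and 4931406C07Rik for Agpat3, Immt, Gm38452 and Ptcd2 for Lpin1 and Ndufaf6, Grpel1 and Fam73b for Dgat1, with r from 0.990 to 0.999. These values are over 8 points that share libraries and one large step, and carry no test.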

How the data were processed

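Total RNA of 3T3-L1 cells was alkylated and sequenced from its 3′ ends (QuantSeq and SLAMseq, 24 libraries). The authors mapped reads to mm10 with SlamDunk on RefSeq 3′UTR regions, and deposited raw counts of all reads and of reads with at least 1 T-to-C conversion, with no normalization. 6 library columns of each table match no sample given here and were not used. Per the submitters' notes, bcl2fastq 2.17.1.14 was used.

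Groups came from sample titles. Tests were edgeR 4.0.16 quasi-likelihood (robust) in R 4.3.3 on all 26563 entries (10589 for labelled counts) that passed filterByExpr (minimum count 10, minimum total 15), with TMM factors of the total counts and Benjamini-Hochberg adjustment over all entries. Days were compared in the 12 DMSO libraries (adjusted p under 0.01), and treatments and their interaction in 24 libraries (under 0.1). SE is the log2 change over the root of F. Background shares use 1 entry per gene, and the share of all genes without overlap between groups was not measured for any comparison. Where entries tied, the first was used. Folds against 0 used 3 reads as the floor, and intervals cover counting error only, at 95%. The fit was tested on simulated counts. Alternatives were DESeq2 1.42.0, other filters, scalings and library sets, a replicate block and leaving out each replicate. The genes, lists and tests were chosen with earlier results of these data known. Named genes were the 8, the list genes called in total and labelled reads in the same direction (DMSO day 7, or ML-792 at day 3 or 7), and the 3 most similar to each of the 8; other list genes and markers were named after their values were seen. Gpat3 and Selenoi were not found under those symbols.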

Additional observations from a re-analysis of the deposited data

Results flagged for a closer look

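The effect of ML-792 on Gpd1 differed between days by a direct test of the difference in total reads. The log2 difference between ML-792 and DMSO was 2.40 ± 0.21 at day 3 and 0.71 ± 0.20 at day 7, a change of −1.69 ± 0.28 (edgeR adjusted p = 0.0010). Both days had the same direction, and the libraries of the 2 treatments did not overlap on either day. Without replicate A the change was −1.76 ± 0.39 and did not pass (edgeR adjusted p = 0.11).

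The effect of ML-792 on Pck1 also differed between the days, and here the estimates had opposite signs. The difference was 0.45 ± 0.36 at day 3, which did not pass the test, and −1.38 ± 0.36 at day 7, a change of −1.84 ± 0.51 (edgeR adjusted p = 0.055). At day 3 all 3 ML-792 libraries lay above the DMSO libraries, and at day 7 all 3 lay below them. The share of all genes without such overlap was not measured on either day. The day 3 difference had an interval of 2 SE from −0.27 to 1.18, so its sign was not settled. Without replicate A or C the change was −2.08 ± 0.58 (edgeR adjusted p = 0.26) or −1.56 ± 0.68 (adjusted p = 0.56) and did not pass.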

How the results depend on the processing

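In total reads, all 8 genes differed over the DMSO days under every alternative run, and in labelled reads the 5 calls became 4 to 6. Labelled Gpd1 was called for ML-792 against DMSO at day 3 under every alternative run (log2 2.69 to 2.96). In total reads, ML-792 called 1 gene instead of 2 at day 1 with a filter of at least 10 reads and with the 6 libraries of the day alone, and 2 instead of 4 at day 3 with the 6 libraries of that day. In labelled reads DESeq2 called 1 gene where edgeR called 0 for the interaction, for day 1 (Lpin1) and for the change of effect from day 3 to day 7 (Gpd1). Without replicate A, B or C in turn, total-read calls were 1 to 2 at day 1, 1 to 5 at day 3, 0 to 3 at day 7, 0 to 2 for the change of effect and 2 to 4 for the interaction, where 2 is without C. No member's called log2 change reversed sign under any alternative.

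With the replicate letter as a block, 5 instead of 3 genes were called for the total-read interaction, 1 instead of 0 for the labelled interaction and 1 instead of 0 for the labelled change of effect. Under the block Lpin1 with ML-792 at day 3 (−0.44 ± 0.12, adjusted p = 0.0073), Agpat2 with ML-792 at day 7 (−0.39 ± 0.14, adjusted p = 0.058), Agpat3 in DMSO at day 3 against day −2 (0.62 ± 0.14, adjusted p = 0.0013) and Lpin1 in DMSO at day 7 against day 3 (0.81 ± 0.13, adjusted p = 2.2e-04) were also called. The labels do not say what the letters mark. Deviations of same-letter libraries correlated at 0.19 on average in total reads, against −0.09 between letters, and 22 of 24 libraries were closest to their own letter, a hint from the data of shared variation, but only 68 of the 84 same-letter pairs exceeded 0.1 (range −0.18 to 0.52), so the fit without the block was kept. Over all genes tested in total reads, the interaction called 1588 genes, 3295 with the block, 295 without A and 431 without C, and ML-792 against DMSO at day 3 called 2072, 3262 with the block, 817 without A, 997 without C and 1338 with the 6 libraries of that day. In labelled reads the interaction called 18 genes over all tested, 81 with the block and 106 with DESeq2.

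Scaling labelled counts by labelled reads called labelled Gpam higher in DMSO at days 3 and 7 than at day −2 (log2 2.76 ± 0.73 and 3.43 ± 0.72). Labelled counts of 0 to 56 reads a group limit Gpam, Agpat3 and Pck1.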

Other observations

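The counted regions of these genes overlap, which bears on how a gene is read. The 8 genes have 31 regions in all, 17 of which passed the filter. Agpat2 has 2 regions with identical counts, and its first listed one was used. Lpin1 has 4 nested regions, whose log2 changes from day −2 to day 7 in DMSO ran from 4.45 to 4.81, and the 2 Agpat3 regions gave 1.54 and 1.61. For Gpam the shorter region had a mean of 41.8 reads a library against 1137, and rose by 3.56 where the longer one rose by 2.41. The difference between the 2 Gpam regions was not tested. Of the 18 Dgat1 regions, 2 overlapping ones at the 3′ end held nearly all reads, with means of 4679 and 4561 a library. The others had means of at most 6 reads a library.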
